A study of Mus musculus with 4 samples.

Results

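The genes described here encode the working parts of the lysosome: its acid hydrolases, the proteins of its limiting membrane, the pump that acidifies it, and the MiT transcription factors that act on such genes. They are 48 genes listed by symbol, out of 36838 gene names on the array. They were chosen by known function, with earlier results of these data known, and all probes carrying those symbols were read on all 4 arrays. They fall into 10 cathepsins with legumain, 16 glycosidases and sulfatases, 7 lipid hydrolases, saposins and other soluble proteins, 6 membrane proteins, 3 MiT transcription factors and 6 proton pump genes.

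The lysosome is the acidic compartment in which cells take apart proteins, glycans and lipids delivered by endocytosis and by the several forms of autophagy. Most of its hydrolases are made as precursors, carried there on mannose 6-phosphate receptors and active only at low pH, which the vacuolar proton pump (V-ATPase) maintains. In chaperone-mediated autophagy (CMA) single cytosolic proteins are unfolded and cross the lysosomal membrane, and cathepsins then degrade them in the lumen. The MiT factors TFEB, TFE3 and MITF are basic helix-loop-helix proteins that bind E-boxes near many lysosomal genes, and TFEB and TFE3 are held in the cytosol when nutrients are plentiful.

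RNA came from NIH-3T3, an established line of mouse fibroblasts labelled wild type, grown to confluency in DMEM with fetal bovine serum. Cells of 1 culture were labelled untreated, and the other 3 cultures received 20 µM of AR7, CA39 or CA77, small molecules made to activate CMA, for 24 h before collection. The compounds were dissolved in DMSO and the control's label names no treatment, so vehicle and compound cannot be told apart in differences from untreated. Each group was 1 array, so there is no replicate culture and no test was run. The only error available is that of repeat spots within an array, with a median SD of 0.12 (log2) on untreated and AR7, 0.09 on CA39 and 0.10 on CA77. It gives a tolerance of 0.16 (log2), or 1.12-fold, for the difference of 2 arrays, which does not cover the variation between cultures.

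The arrays were 1-colour whole-genome arrays with 62976 spots each, and the share of probes well above background was 69.7% for untreated, 52.9% for AR7, 52.2% for CA39 and 61.6% for CA77. CA77 was read in scan 2 and the other arrays in scan 1. By their position codes, untreated lay in slide row 1 and the 3 treated arrays in slide row 2. Slide row and treatment therefore cannot be told apart in differences from untreated. No spot was saturated (0 on each array). Of 10 fibroblast markers, 9 were detected on all 4 arrays. Their summed linear signal ran from 833818 on AR7 to 1308190 on CA39. With CA39 5 of the 10 were at least 1.5-fold above untreated and 0 that far below, against 6.91% and 3.94% of all genes. Among the 5, Pdgfra was on a probe inside a patch of spots that deviated together on 1 array. Pdgfrb was detected on CA39 only, so its fold is a bound. With AR7 2 of the 10 were at least 1.5-fold lower (Col1a1 by 1.04 and Col3a1 by 0.73 on the log2 scale) and 0 higher, and with CA77 3 were lower (Col1a1, Col3a1 and Lox, at -0.83, -0.63 and -0.61) and 0 higher. Over all genes the shares lower and higher were 1.45% and 3.26% (AR7), and 2.73% and 3.74% (CA77). Of 5 epithelial markers 3 were at least 1.5-fold above untreated with CA39, 2 of them (Epcam and Krt8) on probes inside such patches. Their summed signal was 518 on untreated, against 523 (AR7), 1606 (CA39) and 423 (CA77), and Cdh1 was detected on 0 arrays. Of 8 macrophage and osteoclast markers on the array, 6 were detected on untreated, AR7 and CA77 and 4 on CA39, and their summed signal lay between 7286 and 10685. Past 1.5-fold were Laptm5 with AR7, higher by at least 1.40 (log2), and Csf1r with CA77, at -0.88. The 3 endothelial markers were detected on every array, with sums from 3836 to 4343, and 1 of them, Cdh5, was 0.62 (log2) higher with AR7. The part of these shifts in the lysosomal values was not tested. In bulk RNA, fewer cells of a type and less RNA per cell cannot be told apart.

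The E-box CACGTG was looked for in the stretch from 250 bases before to 50 bases after each gene's start in RefSeq (mouse GRCm38.p6), because it is the core of the sequence that MiT factors bind. It is its own reverse complement, so 1 search covers both strands. Promoters were found for 43 of the 48 genes, and Ctsb, Ctsh, Asah1, Atp6v1b2 and Atp6v1h had no entry. The E-box stood near the start of 15 of 43 lysosomal genes (34.9%) and of 2187 of all 27025 genes with an entry (8.09%), detected on the arrays or not. A gene was counted if any of its entries held the motif. The longer palindrome TCACGTGA, which contains the E-box, was found for 6 of the 43 genes (14.0%) and for 304 of the 27025 (1.12%). The 15 were 4 cathepsins, 6 glycosidases and sulfatases, 3 membrane proteins and 2 pump genes. The lipid hydrolases (0 of 6) and the MiT factors themselves (0 of 3) held none in this window.

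The windows around the motif are printed for the 6 genes with the longer palindrome and for Lamp1, which carried 4 E-boxes. Each runs 5′ to 3′ on the coding strand, with E-boxes, or the longer palindrome where present, in capitals. Positions count from -1, the last base before the gene's start.
Ctsd, chr7:142387889-142387956, minus strand, -129 to -62: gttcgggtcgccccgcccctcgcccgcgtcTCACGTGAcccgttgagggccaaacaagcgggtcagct
Gla, chrX:134601163-134601255, minus strand, -250 to -158: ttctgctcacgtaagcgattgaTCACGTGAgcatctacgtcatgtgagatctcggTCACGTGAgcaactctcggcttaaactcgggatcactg
Cln3, chr7:126583321-126583388, minus strand, -152 to -85: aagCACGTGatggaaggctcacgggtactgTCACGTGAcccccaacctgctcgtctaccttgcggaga
Mcoln1, chr8:3500443-3500510, plus strand, -76 to -9: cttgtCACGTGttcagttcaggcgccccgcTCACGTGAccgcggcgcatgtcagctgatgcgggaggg
Atp6v0d1, chr8:105566055-105566098, minus strand, -34 to 10: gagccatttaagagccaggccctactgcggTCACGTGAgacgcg
Atp6v1a, chr16:44139354-44139421, minus strand, -162 to -95: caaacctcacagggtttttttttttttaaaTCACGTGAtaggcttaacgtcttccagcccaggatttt
Lamp1, chr8:13159070-13159170, plus strand, -91 to 10: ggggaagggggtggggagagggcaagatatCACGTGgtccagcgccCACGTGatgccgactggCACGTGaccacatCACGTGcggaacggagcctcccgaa
The 4 E-boxes of Lamp1 begin at -61, -45, -28 and -15. In Atp6v0d1, a pump subunit, the palindrome begins at -4 and spans the gene's start, and in Gla, alpha-galactosidase A, it occurs at -228 and again at -195.

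**Figure D1:**
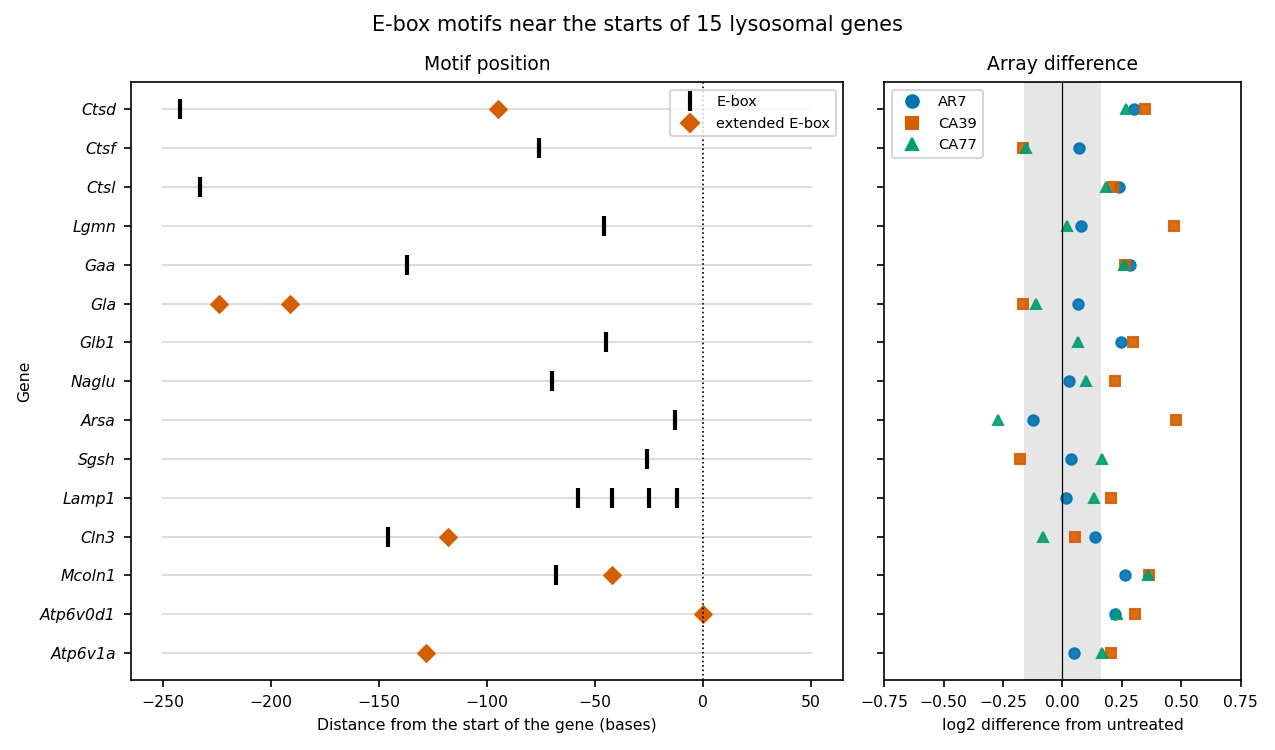
Left, position of each E-box (bar) and longer palindrome (diamond) in the 15 lysosomal promoters that hold one, in bases from the gene's start. Right, log2 difference of each treated array from untreated for the same genes, with the tolerance of 0.16 in grey; the values run from -0.27 (Arsa, CA77) to 0.48 (Arsa, CA39).

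Of the 48 genes, 44 were detected on all 4 arrays. The exceptions were Gm2a, the ganglioside activator protein, on 0 arrays; Ctsh on untreated only; Ctsc on untreated and CA39; and Manba on all but CA39. The first question was whether lysosomal transcripts stood apart from untreated after each compound. Differences were small in all 6 groups. At 1.5-fold, 0 of 47 genes compared were higher and 0 lower with AR7, where 3.26% and 1.45% of all genes on the array were. With CA39 1 gene (Ctsc) was higher and 0 were lower, against 6.91% and 3.94% of all genes. With CA77 0 were higher and 0 lower, against 3.74% and 2.73%. Those shares include dim genes. Among the 20594 genes detected on all 4 arrays, the shares higher and lower were 1.68% and 1.41% (AR7), 5.60% and 4.55% (CA39), and 1.42% and 2.43% (CA77), with 0 of the 44 lysosomal genes in each. Ctsc was also the only one past 2-fold with any compound, a distance reached in either direction by 2.19% (AR7), 4.85% (CA39) and 2.47% (CA77) of all genes.

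Within that narrow range the median log2 difference from untreated over the lysosomal genes came to 0.07 (AR7), 0.20 (CA39) and 0.10 (CA77), while over all genes compared it was 0.00, 0.00 and -0.01. The all-gene values include differences set to 0 for undetected signals, and over genes detected on all 4 arrays the medians were -0.01, -0.04 and -0.02. Other lists of lysosomal genes were split with CA39. Their medians were 0.20 for 15 other hydrolases and cofactors, 0.40 for 2 cathepsin inhibitors and 0.09 for 8 other membrane proteins. They were 0.04 for 10 other pump subunits, 0.02 for 6 genes of the nutrient control of MiT factors and -0.23 for 6 genes that sort proteins to the lysosome. With CA39 28 of 47 genes (59.6%) were higher by more than the tolerance, against 20.9% of all genes, and 9 (19.1%) were lower, against 27.2%. With CA77 19 (40.4%) were higher, against 19.4%, and 8 (17.0%) lower, against 25.5%. With AR7 13 (27.7%) were higher, against 15.0%, and 4 (8.51%) lower, against 17.5%. Among genes detected on all 4 arrays, 16.2% (AR7), 23.6% (CA39) and 18.0% (CA77) were higher, against 12, 27 and 18 of 44 lysosomal genes. Lower were 20.8%, 33.5% and 26.0%, against 4, 8 and 7 of the 44. These comparisons share the untreated array. The lysosomal genes were chosen with earlier results of these data known, so their shares are description only. The share of genes above the tolerance was higher among the lysosomal genes than over the array in each comparison, and it was largest with CA39. That count depended on the scaling, since the deposited value table scaled to each array's 75th percentile gave 18 of 47 (38.3%) with CA39, against 17.0% of all genes. Among the 7882 genes detected on all arrays at a mean log2 level of 12 or more, the medians were 0.00 with each compound.

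By group, the medians with CA39 were 0.13 for the cathepsins, 0.21 for the glycosidases and sulfatases, 0.25 for the lipid hydrolases, 0.19 for the membrane proteins, 0.31 for the MiT factors and 0.18 for the pump. With AR7 they ran from -0.04 for the lipid hydrolases to 0.11 for the cathepsins. With CA77 they ran from -0.10 for the lipid hydrolases to 0.15 for the membrane proteins. Which of the CA39 medians lay beyond the tolerance depended on the processing. With the deposited table they were 0.13 for the glycosidases and sulfatases, 0.12 for the membrane proteins and 0.10 for the pump, and 75th-percentile scaling of the processed signal gave 0.12, 0.14 and 0.15, all inside it. The lipid hydrolases came inside it without a floor (0.15), and the cathepsins went beyond it when spots in grid rows over 160 alone were used (0.27). Of the 6 medians with CA39, that of the MiT factors alone kept its side in each of the 10 alternatives, at 0.27 to 0.42. For genes with the E-box, the median difference was 0.08 (AR7), 0.22 (CA39) and 0.13 (CA77). Without it, the medians were 0.07, 0.20 and 0.08. For the 6 genes with the longer palindrome they were 0.18, 0.25 and 0.20, and for the 36 without it 0.07, 0.21 and 0.09. The 6 ran from 0.05 to 0.30 (AR7), from -0.17 to 0.36 (CA39) and from -0.11 to 0.36 (CA77), inside the range of the 36. A link between motif and difference was not tested.

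**Figure D2:**
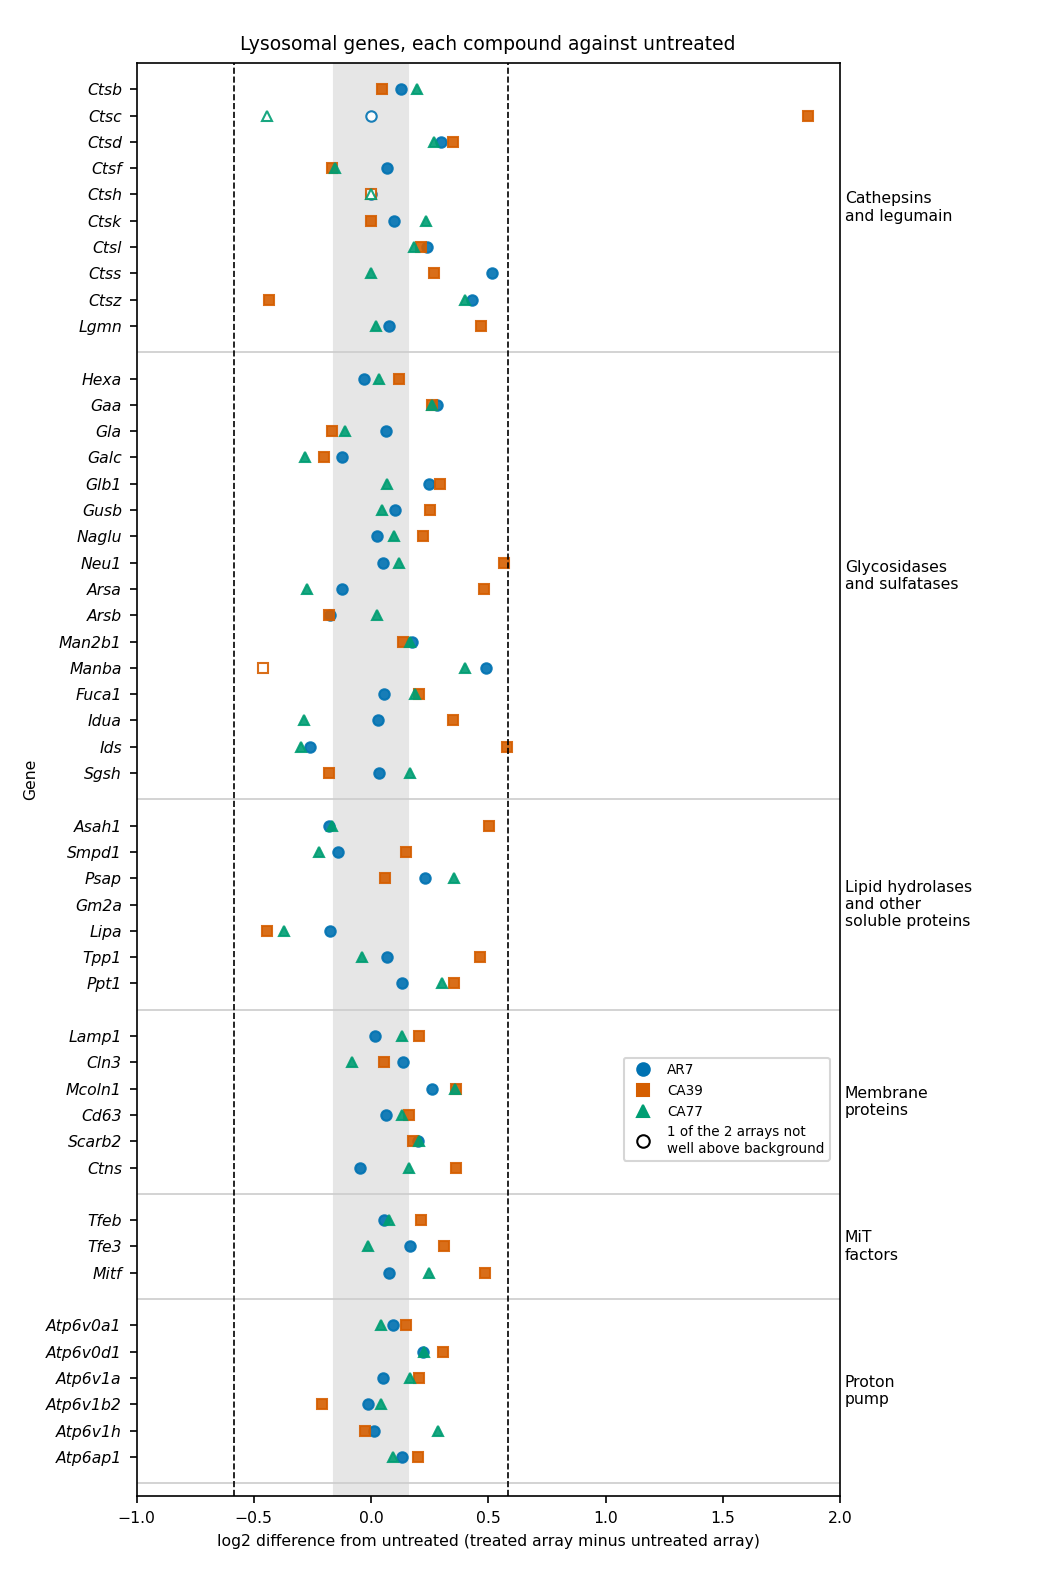
Log2 difference of each treated array from untreated (horizontal axis) for the 48 lysosomal genes, in 6 groups. Grey marks the tolerance of 0.16, dashed lines 1.5-fold, and open symbols a pair in which 1 array was not well above background; a value whose higher side was not detected is drawn at 0. Gm2a has no value, and only Ctsc with CA39 (1.86) lies beyond a dashed line.

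The cathepsins are the lysosome's proteases. In what follows, 3 differences given in a row for a gene are log2 differences from untreated, in the order AR7, CA39 and CA77. Ctsc, dipeptidyl peptidase 1, which trims and activates serine proteases of immune cells, read 6.70 (log2) on untreated, against 5.37 (AR7), 8.56 (CA39) and 5.28 (CA77). It was well above background on untreated and CA39 only. The CA39 array thus stood above untreated by 1.86 (log2), or 3.64-fold. AR7 has no direction against untreated, and CA77 was at least 1.36-fold below it. The probe was a single one, on 1 spot per array, outside the patches of deviating spots.

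Ctsz, a cysteine carboxypeptidase, read 15.61 on untreated, against 16.04 (AR7), 15.18 (CA39) and 16.01 (CA77). Its AR7 and CA77 values lay above untreated by 0.43 and 0.40 (log2) and its CA39 value below by 0.43, so that CA39 was the lowest array and untreated lay between. Ctss, an elastolytic cathepsin that stays active near neutral pH, read 6.56 on untreated, against 7.08 (AR7), 6.83 (CA39) and 6.56 (CA77). AR7 was thus 0.52 (log2) above untreated, at a level close to the AR7 array's floor of 6.82, the 1st percentile of detected signal, and CA77 was level with it.

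Ctsd, the main aspartic protease, read 15.40 on untreated, against 15.70 (AR7), 15.75 (CA39) and 15.67 (CA77). All 3 treated arrays stood above untreated, by 0.30, 0.35 and 0.27 (log2), and its second probe gave 0.27, 0.48 and 0.22. Ctsl, a broad cysteine endopeptidase, stood 0.24, 0.21 and 0.18 above with AR7, CA39 and CA77. Lgmn, legumain, which cleaves after asparagine and matures other cathepsins, stood 0.47 above with CA39, and 0.08 and 0.02 above with AR7 and CA77. Ctsb, a peptidase abundant in many cells, stood 0.13, 0.05 and 0.19 above.

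Ctsk, the collagen-degrading cathepsin of osteoclasts, gave differences of 0.10, 0.00 and 0.23, and Ctsf 0.07, -0.17 and -0.16. Ctsh, an aminopeptidase, read 6.24 on untreated and was not detected on any treated array, where floors of 6.26 to 6.87 allow no fold.

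**Figure D3:**
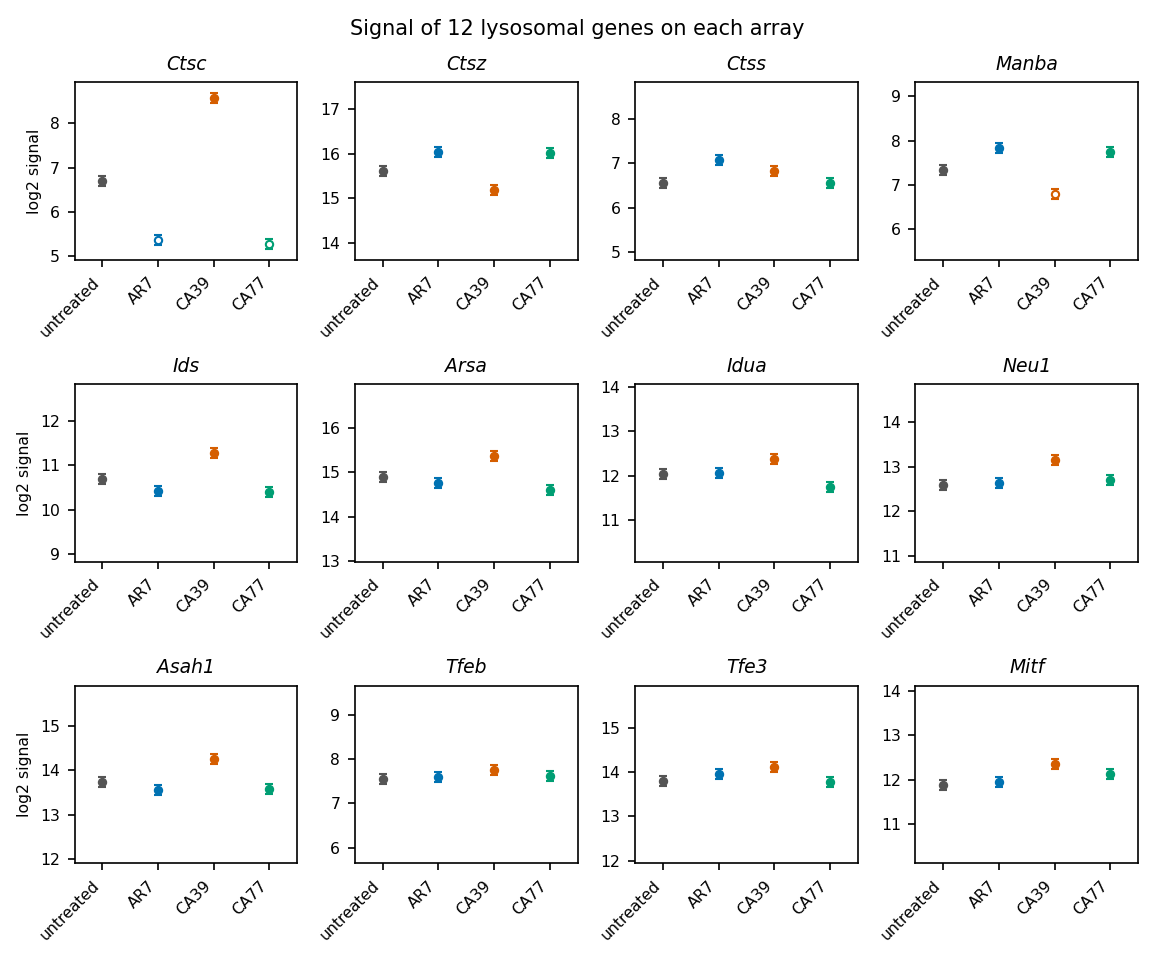
Normalized log2 signal of 12 lysosomal genes on each of the 4 arrays, with a common height of 4 log2 units per panel. Open symbols mark values not well above background, and bars the median SD of repeat spots (0.11). On the probe used for each gene, CA39 is the highest array for Ctsc, Ids, Arsa, Idua, Neu1, Asah1 and the 3 MiT factors and the lowest for Ctsz and Manba.

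Among enzymes that act on glycans, the largest difference from untreated measured on both arrays was that of Ids, iduronate 2-sulfatase, which starts the breakdown of heparan and dermatan sulfate. It read 10.68 on untreated, against 10.43 (AR7), 11.26 (CA39) and 10.39 (CA77). CA39 was 0.58 (log2) above untreated, or 1.49-fold and just inside the threshold, while AR7 and CA77 were 0.26 and 0.30 below.

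On CA39 further glycan enzymes stood above untreated. Neu1, the sialidase whose loss causes sialidosis, read 12.58 on untreated, against 12.63 (AR7), 13.14 (CA39) and 12.70 (CA77), with CA39 standing 0.57 (log2) above untreated and the other arrays inside the tolerance. Arsa, arylsulfatase A, which desulfates sulfatide, read 14.89 on untreated, against 14.76 (AR7), 15.37 (CA39) and 14.61 (CA77). Idua, alpha-L-iduronidase, which acts after Ids, read 12.03 on untreated, against 12.06 (AR7), 12.38 (CA39) and 11.74 (CA77). Both were highest on CA39 (by 0.48 and 0.35 above untreated) and lowest on CA77 (-0.27 and -0.28). The second Idua probe gave 0.24 with CA39 but -0.05 with CA77, which is inside the tolerance.

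Manba, beta-mannosidase, showed another order. It read 7.33 on untreated, 7.82 on AR7, 6.80 on CA39, where it was not well above background, and 7.73 on CA77. AR7 and CA77 stood 0.49 and 0.40 (log2) above untreated, and CA39 at least 1.38-fold below. That bound has no place in the order of the measured differences.

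The other 11 glycan enzymes stayed within 0.30 (log2) of untreated on every array, on the probe used for each. Gaa, the acid alpha-glucosidase that degrades glycogen, read 16.64 on untreated, against 16.92 (AR7), 16.90 (CA39) and 16.90 (CA77), so all treated arrays were above it by 0.28, 0.26 and 0.26, while its second probe gave 0.29, 0.38 and 0.14. Glb1, beta-galactosidase, gave 0.25, 0.30 and 0.07. Gusb, beta-glucuronidase, is the one lysosomal gene whose probe was printed 10 times per array. Its log2 signal was 15.24 ± 0.13 (SD over 10 spots) on untreated, 15.34 ± 0.14 (10 spots) on AR7, 15.49 ± 0.06 (9 spots) on CA39 and 15.29 ± 0.10 (10 spots) on CA77. The CA39 mean was 0.25 above that of untreated, which exceeds the SD of the spots on either array, and the other 2 differences (0.10 and 0.05) did not. Over 9 alternatives the CA39 difference of Gusb ran from 0.11 to 0.25, and at its lowest it lay inside the tolerance.

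Naglu, which removes N-acetylglucosamine from heparan sulfate, stood 0.22 above untreated with CA39 and Fuca1, a fucosidase, 0.20. Man2b1, an alpha-mannosidase, gave 0.17, 0.13 and 0.17 and Hexa, the enzyme lost in Tay-Sachs disease, -0.03, 0.12 and 0.03. Galc, galactosylceramidase, gave -0.12, -0.20 and -0.28, beyond the tolerance with CA39 and CA77. Arsb, arylsulfatase B, gave -0.17, -0.18 and 0.02 on its brighter probe and -0.02, -0.06 and -0.02, inside the tolerance, on the other, and Gla gave 0.06, -0.17 and -0.11. Sgsh, a sulfamidase of the heparan sulfate pathway, gave 0.04, -0.18 and 0.16 on its brighter probe but 0.11, 0.41 and 0.06 on the other, so its direction with CA39 depended on the probe.

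In the lipid group, Asah1, acid ceramidase, read 13.74 on untreated, against 13.56 (AR7), 14.25 (CA39) and 13.57 (CA77). CA39 was 0.51 (log2) above untreated and the other arrays were 0.18 and 0.17 below, and the second probe gave 0.59 above with CA39, and -0.16 and -0.03. Lipa, the acid lipase that frees cholesterol from its esters, lay below untreated on all treated arrays, with differences of -0.17, -0.44 and -0.37. Smpd1, acid sphingomyelinase, gave -0.14, 0.15 and -0.22. All 3 of these enzymes read below untreated with AR7 and with CA77, Smpd1 by less than the tolerance with AR7, and were split with CA39.

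Among the other soluble proteins, Psap, the precursor of the saposins, gave 0.23, 0.06 and 0.35. Tpp1, a tripeptidyl peptidase, gave 0.07, 0.47 and -0.04. Ppt1, which removes palmitate from proteins, gave 0.13, 0.36 and 0.30. Neither Gm2a probe was detected on any array.

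On the probe used for each, the membrane proteins lay between -0.08 and 0.36 (log2) from untreated. The largest difference on those probes was that of Mcoln1, the calcium channel mucolipin 1, which read 13.73 on untreated, against 13.99 (AR7), 14.09 (CA39) and 14.09 (CA77). All 3 treated arrays were above untreated, by 0.26, 0.36 and 0.36 (log2). Scarb2 (LIMP-2), which carries glucocerebrosidase to the lysosome, gave 0.20, 0.18 and 0.21. Lamp1, a major glycoprotein of the membrane, read 17.89 on untreated, against 17.90 (AR7), 18.09 (CA39) and 18.02 (CA77), with the CA39 value 0.20 above untreated and the other 2 inside the tolerance. Its CA39 difference ran from 0.08 to 0.23 over the 10 alternatives, so it did not always stay beyond the tolerance.

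Ctns, the cystine exporter, gave -0.05, 0.36 and 0.16 and Cd63, a tetraspanin, 0.07, 0.16 and 0.13. Cln3, the protein lost in juvenile Batten disease, gave 0.14, 0.05 and -0.08 on its brightest probe, while the probe farthest from it gave -0.28, -0.28 and -0.53.

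The 3 MiT factors stood above untreated by more than the tolerance with CA39, as 20.9% of all genes did, and 0 of them reached 1.5-fold, which 6.91% of all genes did. Tfeb, the factor best known for driving lysosomal genes, read 7.54 on untreated, against 7.60 (AR7), 7.75 (CA39) and 7.62 (CA77), so CA39 was 0.21 above untreated. Its CA39 difference came inside the tolerance, at 0.058, 0.099 and 0.15, with 75th-percentile scaling, the deposited table and quantile-normalized processed signal. Tfe3 read 13.79 on untreated, against 13.96 (AR7), 14.10 (CA39) and 13.78 (CA77), with CA39 0.31 above. Its second probe gave 0.32, 0.25 and 0.09, so AR7 was the highest array on that probe. Mitf, named for its part in pigment cells, read 11.87 on untreated, against 11.94 (AR7), 12.35 (CA39) and 12.11 (CA77). It was 0.48 above untreated with CA39 (0.56 on its second probe) and 0.25 with CA77, where the second probe gave 0.03 (with AR7 the probes gave 0.08 and -0.17). These are transcript values, and the factors' location in the cell was not measured on the arrays.

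The proton pump joins a membrane sector (V0) to a cytosolic sector (V1) that hydrolyses ATP. Atp6v0d1, which couples the sectors, showed the largest difference from untreated with the processing used here. It read 13.39 on untreated, against 13.61 (AR7), 13.70 (CA39) and 13.62 (CA77), above untreated by 0.22, 0.31 and 0.23. Atp6v1h, a regulatory V1 subunit, gave 0.01, -0.03 and 0.29. Over 10 alternatives its CA77 difference ran from 0.28 to 0.38, and that of Atp6v0d1 with CA39 from 0.18 to 0.31, so their rank depended on the processing.

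The catalytic subunit Atp6v1a gave 0.05, 0.20 and 0.17 and the other subunit of the ATPase head, Atp6v1b2, -0.01, -0.21 and 0.04. Atp6v0a1, of the membrane sector, gave 0.10, 0.15 and 0.04 and the accessory protein Atp6ap1 0.13, 0.20 and 0.10. With CA39 the 6 differences ran from -0.21 (Atp6v1b2) to 0.31 (Atp6v0d1).

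**Figure D4:**
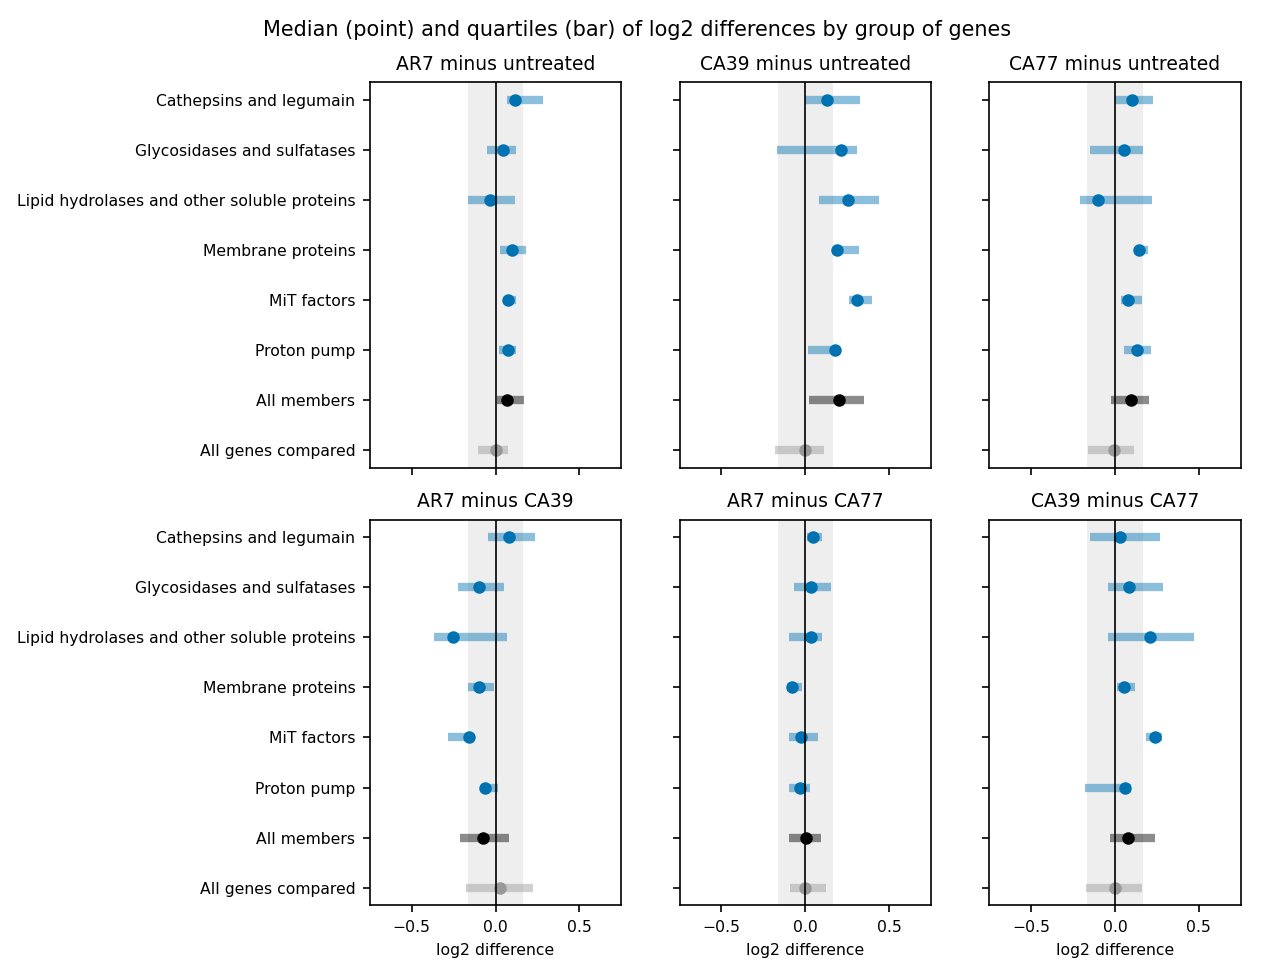
Median (point) and quartiles (bar) of the log2 difference for each group of lysosomal genes, for all of them together and for all genes compared, in the 3 comparisons with untreated and the 3 between compounds. Grey marks the tolerance of 0.16. The lysosomal median is 0.20 for CA39 minus untreated and 0.01 for AR7 minus CA77.

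The 3 compounds were given at the same dose and for the same time, so their arrays can be set side by side in 3 pairs. The genes named here were picked after their values had been seen. Between AR7 and CA77 0 of 45 genes compared reached 1.5-fold in either direction, where 2.75% of all genes were higher with AR7 and 1.98% lower, and the median difference was 0.01. Among genes detected on all 4 arrays those shares were 1.24% and 0.787%, so that a count of 0 was near the background. Ctss was the farthest apart, 0.52 (log2) higher with AR7.

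Between AR7 and CA39, 2 of 46 genes were at least 1.5-fold higher with AR7 and 4 lower, against 6.21% and 8.02% of all genes. Ctsz was 0.87 (log2) higher with AR7, or 1.82-fold, and Manba at least 1.93-fold higher. Ids was 1.79-fold, Asah1 1.61-fold and Arsa 1.52-fold lower with AR7, and Ctsc at least 3.35-fold lower. The lysosomal shares, 4.35% higher and 8.70% lower, were near those of the array. Among genes detected on all 4 arrays, 1 of 44 was higher and 3 lower, against 5.22% and 6.61%.

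Between CA39 and CA77, 5 of 46 were at least 1.5-fold higher with CA39 and 2 lower, against 8.0% and 5.19% of all genes. Those higher were Ids (1.84-fold), Arsa (1.69-fold), Asah1 (1.60-fold), Idua (1.55-fold) and Ctsc (at least 4.95-fold), and those lower Ctsz (1.78-fold) and Manba (at least 1.81-fold). The shares of 10.9% and 4.35% again lay near those of the array. With detection on all 4 arrays, 4 of 44 were higher and 1 lower, against 6.48% and 4.42%. At 2-fold Ctsc alone was called, higher with CA39 in both pairs that hold it. All-gene shares at 2-fold, higher and lower, were 2.43% and 3.72% (AR7 against CA39), 1.40% and 1.16% (AR7 against CA77), and 3.98% and 2.24% (CA39 against CA77). The pairs share arrays, so the genes common to both rest on the same CA39 values. Arsa stayed under 1.5-fold in both pairs when processed signals were scaled to the 75th percentile and in the pair with AR7 when the deposited table was used, and Idua when the median of its probes was taken.

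Beyond the 48 genes, other lysosomal genes were counted from lists drawn up by function. Of 10 other pump subunits 1 was at least 1.5-fold higher with CA39 (6.91% of all genes were), Atp6v1g1, which read 14.86 on untreated, against 14.78 (AR7), 15.50 (CA39) and 14.88 (CA77), a difference of 0.64.

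Of 3 cathepsin inhibitors 2 were on the array under their symbols. Cst3, cystatin C, the secreted inhibitor of cysteine cathepsins, read 16.91 on untreated, against 16.86 (AR7), 17.53 (CA39) and 16.80 (CA77), so CA39 stood 0.62 above untreated. Of 6 genes for sorting to the lysosome 1 was at least 1.5-fold lower with CA77 (2.73% of all genes were), Sort1, the receptor sortilin. It read 11.08 on untreated, against 10.58 (AR7), 10.51 (CA39) and 10.06 (CA77), below untreated by 0.50, 0.57 and 1.02. The list medians, in the same order, were 0.14, 0.04 and 0.14 for the other pump subunits, 0.08, -0.23 and 0.04 for sorting, 0.03, 0.09 and -0.01 for other membrane proteins, and 0.03, 0.02 and 0.05 for nutrient control of the MiT factors. For the other hydrolases and cofactors they were 0.01, 0.20 and 0.04, and for the 2 cathepsin inhibitors 0.13, 0.40 and -0.03. Of the 8 other membrane proteins and the 6 genes of the nutrient control of MiT factors, 0 were past 1.5-fold with any compound, a count too small to set apart from the shares of 1.45% to 6.91% over all genes.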

How the data were processed

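RNA of 4 NIH-3T3 cultures was hybridised, 1 array per group. The authors labelled total RNA with Cy3 and read the scans in Feature Extraction 10.7.3.1. For every spot the deposited files hold a linear intensity, the background around it and flags. The deposited series table equals the background-subtracted intensity at all 62976 spots of each array, unscaled and not log-transformed. Its column medians were 90.6 (untreated), 91.1 (AR7), 84.1 (CA39) and 76.0 (CA77). The submitters' processing notes name oligo and RMA, whose values were not used here.

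Following the steps of RMA, median spot intensities were corrected for background by limma 3.58.1 (normexp, run in R 4.3.3), control spots were dropped, arrays were quantile normalized and log2 values taken. The plan named the spot signal, and its median was used. Spots with a non-uniformity or outlier flag were dropped (142 on untreated, 328 on AR7, 328 on CA39, 321 on CA77), and spots of a probe averaged. Accessions were matched to RefSeq (GRCm38.p6), which named 27512 of 55378 probes. A gene took its brightest probe. The array design cites an earlier build, so probes have no coordinates.

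Detection required that more than 50% of a probe's spots pass the scanner's well-above-background test. An undetected value was raised to the 1st percentile of detected signal (log2 5.88 on untreated, 6.82 on AR7, 6.87 on CA39, 6.26 on CA77), so a fold against it is a bound. It was set to 0 where the undetected side would be higher, and not computed where neither was detected. A gene was called at 1.5-fold. The number of arrays limits precision. The procedure was tested on simulated data.

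The genes, groups, lists and motifs were chosen with earlier results of these data known. Values on all arrays are given for genes past 1.5-fold, for the largest difference in each group and for the MiT factors. Genes shown beyond this rule, and all choices in the comparisons between compounds, were chosen after their values were seen. Counts for other hydrolases and cofactors are not reported here.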

Additional observations from a re-analysis of the deposited data

How the results depend on the processing

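With 1 array per group, culture, compound and array cannot be told apart, and signals near background limit Ctsc, Ctsh, Ctss and Manba. No paired analysis was possible because each group has 1 array. The median over the lysosomal genes stayed above 0 in 10 of 10 alternatives with each compound (AR7 0.03 to 0.07, CA39 0.12 to 0.21, CA77 0.08 to 0.12). Of 210 group medians recomputed against untreated, 210 moved by less than the tolerance, and of 210 between compounds 208 did. Many of these medians are smaller than the tolerance, so a median could change sign and still be counted. The alternative without patches of deviating spots could not move them, because no lysosomal probe lay in such a patch. With spots in grid rows over 160 only, which leaves fewer genes, the medians for CA39 minus CA77 were 0.26 for the cathepsins and 0.051 for the lipid hydrolases.

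The counts past 1.5-fold are small and moved by single genes. With AR7, 2 genes (Ctss and Manba) were higher under 75th-percentile scaling, quantile-normalized processed signal and the deposited table, and 1 (Ctsc) lower without a floor. With CA39, 2 were higher with quantile-normalized processed signal and 0 when detection on all 4 arrays was required, and 1 (Manba) was lower under 75th-percentile scaling, quantile-normalized processed signal and the table. With CA77, 1 (Ctsc) was lower under these 3 and without a floor. The alternatives between compounds, and those for counts beyond the tolerance, were chosen after seeing the data. Between AR7 and CA39, 1 was higher with detection on all 4 arrays or in grid rows over 160 and 3 without a floor, and at 2-fold 0 were higher and 1 lower (2.43% and 3.72% of all genes). Between AR7 and CA77, 1 was higher under the 3 scalings above and without a floor. Between CA39 and CA77, 1 was lower with detection on all 4 arrays or in grid rows over 160, and at 2-fold 1 was higher and 0 lower (3.98% and 2.24% of all genes). Genes above the tolerance with CA39 numbered 18 with the deposited table. The cause of these shifts was not tested.

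Of 1368 single differences from untreated, 1337 moved by less than the tolerance, and of 1335 between compounds 1295 did. Among differences that began beyond the tolerance, 1 from untreated and 3 between compounds turned direction; changes of sign in smaller ones were not counted. With the median of its probes, Sgsh gave 0.12 for CA39 minus untreated, -0.045 for AR7 minus CA39 and 0.0044 for CA39 minus CA77. Arsb gave 0.00059 for AR7 minus CA77 in grid rows over 160. Over all genes and the 10 alternatives at 1.5-fold, the shares higher and lower ran from 1.55% to 5.20% and 1.03% to 3.49% (AR7), 5.24% to 8.08% and 3.03% to 8.16% (CA39), 1.43% to 5.81% and 1.66% to 6.98% (CA77), 5.14% to 9.25% and 6.61% to 9.48% (AR7 against CA39), 1.19% to 4.55% and 0.539% to 4.08% (AR7 against CA77), and 6.47% to 9.33% and 3.73% to 7.40% (CA39 against CA77). Of these, 75th-percentile scaling gave shares past 1.5-fold higher and lower of 3.66% and 2.78% (AR7), 6.79% and 8.14% (CA39), and 4.77% and 6.84% (CA77).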
